A study of Mus musculus with 23 samples.

Results

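The oxytocin and vasopressin system of the nucleus accumbens was examined through 5 genes, the peptide precursors Oxt and Avp and the receptors Oxtr, Avpr1a and Avpr1b. The 5 were chosen by name, as peptides and receptors of social behaviour. Each was read by the only probe set that carries its symbol alone, so 5 of 5 were measured, out of 22180 named genes and 41345 probe sets. The 23 arrays are labelled as biological replicates, each taken here as 1 mouse, of strain C57BL/6 (C57BL/6J in the husbandry notes) at about 15 weeks of age. About 5 weeks before tissue collection each mouse had received an adeno-associated virus (AAV) in the nucleus accumbens, a ventral striatal region of reward and social motivation. The virus carried a scrambled hairpin in 5 control females and 6 control males, and a short hairpin RNA against Nr1d1 in 6 females and 6 males labelled Nr1d1 knockdown. Nr1d1 encodes REV-ERBα, a nuclear receptor that represses transcription in the circadian clock. Which promoter drives the hairpins, and in which cells, is not stated in the labels. The treatment text mentions postpartum day 7 and litters of 11 for the males as well as the females, so whether the females were lactating, a state in which oxytocin matters, cannot be told from it.

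Oxytocin and vasopressin are closely related peptides made mainly by neurons of the hypothalamus, cut out of larger precursors and released both into the blood and within the brain. They act on a small family of receptors coupled to G proteins, of which Oxtr binds oxytocin, Avpr1a is the main vasopressin receptor of the forebrain and Avpr1b is known from the pituitary and hippocampal area CA2. In the nucleus accumbens, Oxtr is known for its part in social reward and pair bonding, and Avpr1a is known from the neighbouring septum and pallidum in social behaviour of males. The peptide reaches the accumbens largely in axons, whose cell bodies lie elsewhere, so precursor RNA in the dissected tissue need not follow the peptide.

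Since the hairpin targets a clock repressor, the sequences before the transcription start of 3 members are shown. These are the 250 bases upstream of an annotated start in RefSeq, build GRCm38.p6. For Oxt and Oxtr the annotated gene reaches farther upstream than the window shown, so the start used may not be the only one. Capitals mark CACGTG, the E-box bound by the clock activators CLOCK and BMAL1 (it reads the same on both strands), and AGGTCA on either strand (TGACCT when it lies on the other), the core that REV-ERBα and many other nuclear receptors bind. No 2 matches overlapped. Oxt lies on chromosome 2, plus strand, chr2:130575919-130576168. Avp lies close to it on the minus strand, chr2:130582589-130582838. Oxtr lies on chromosome 6, minus strand, chr6:112489826-112490075.
Oxt: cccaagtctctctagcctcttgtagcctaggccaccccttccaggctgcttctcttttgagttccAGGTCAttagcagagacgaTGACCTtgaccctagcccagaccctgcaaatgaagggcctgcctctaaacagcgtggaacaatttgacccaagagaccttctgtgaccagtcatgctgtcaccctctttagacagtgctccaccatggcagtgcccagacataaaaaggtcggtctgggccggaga
Avp: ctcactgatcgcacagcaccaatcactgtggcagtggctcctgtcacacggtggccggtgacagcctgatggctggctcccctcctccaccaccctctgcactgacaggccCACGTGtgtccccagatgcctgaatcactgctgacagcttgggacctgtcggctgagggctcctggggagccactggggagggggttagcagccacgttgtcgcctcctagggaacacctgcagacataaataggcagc
Oxtr: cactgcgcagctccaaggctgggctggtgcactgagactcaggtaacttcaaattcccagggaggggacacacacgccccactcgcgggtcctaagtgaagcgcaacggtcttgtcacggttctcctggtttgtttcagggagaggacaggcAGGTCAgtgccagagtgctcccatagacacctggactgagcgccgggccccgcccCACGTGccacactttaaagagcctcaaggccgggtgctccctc
The Oxt stretch held AGGTCA on the plus strand with its first base 185 bases before the start, and on the other strand 166 bases before it. The Avp stretch held a CACGTG 139 bases before the start, and the Oxtr stretch held AGGTCA at 98 and CACGTG at 43 bases before it. Neither motif was found in the same window of Avpr1a. Such matches are common, as CACGTG occurred in 6.02% and AGGTCA in 14.0% of the 32851 mouse promoter windows of this length, and they describe letters, not binding.

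The labels were checked first on the targeted transcript and on the tissue. Nr1d1 differed between arrays labelled knockdown and control by −0.05 (SE 0.09) in females and −0.01 (SE 0.09) in males on the log2 scale, with no fall detectable (exact permutation p = 0.576 and 0.926, two-sided), so every direction below rests on the labels. Medium spiny neurons make up most of the accumbens, and their 11 measured marker genes lay between percentiles 90.8 and 99.8 of the female arrays and between 91.6 and 99.7 of the male arrays. Of the 8 measured cortical excitatory neuron genes, the median gene lay at percentile 77.1 in females and 74.2 in males. They ran from Emx1 at 32.8 and 37.7 to Slc17a7, the vesicular glutamate transporter that defines these neurons, at 96.5 and 88.9. Slc17a7 was uneven between mice. It ranged from 8.92 to 11.13 in females and from 4.64 to 10.34 in males, in the log2 intensity units of the deposited table. The medians of all probe sets were 6.11 to 6.17 on the female arrays and 5.84 to 5.88 on the male arrays. How the arrays of each sex were normalized is not stated, so sex and array set cannot be told apart, and levels of females and males are only set side by side.

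Both peptide precursors gave signals in the middle of the array's distribution. Oxt, the oxytocin and neurophysin precursor, had a median percentile of 52.8 among all probe sets of an array, with a lowest array of 47.2 and a highest of 59.2. Avp, the vasopressin precursor, had a median percentile of 64.5 (55.8 to 70.0). For reference, 14 measured genes of other organs, such as the milk protein gene Csn2 and the thyroglobulin gene Tg, had medians from 8.4 to 51.9 in females and from 5.2 to 46.8 in males. The 3 measured Y-linked genes, which females lack, read 8.2 to 13.6 in females. Avp exceeded the highest gene of other organs on 23 of 23 arrays, whereas Oxt did so on 3 of 11 female and 12 of 12 male arrays. Its percentiles were 47.2 to 53.2 in females and 51.0 to 59.2 in males. Probe sets differ in how brightly they read a given amount of RNA, so these percentiles place a signal on the array and do not rank the genes by abundance.

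Markers of the hypothalamus, where most cell bodies that make the peptides lie, were spread over the lower and middle parts of the distribution, with 1 near the top. Of the 13 measured hypothalamic neuron genes, the median gene lay at percentile 39.8 in females and 40.0 in males. Arnt2, a partner of Sim1 that is widely expressed in brain, lay at 94.3 and 94.9. Pou3f2, a transcription factor also found in other neurons, lay at 62.2 and 61.3, and the thyrotropin-releasing hormone gene Trh at 56.2 and 56.9. These 3 of 13 exceeded the highest gene of other organs in females, and they and Otp, 4 of 13, did so in males. Sim1 and Otp, transcription factors of the neurons that make oxytocin and vasopressin, lay at 43.1 and 51.4 in females and at 40.0 and 56.2 in males. Hcrt and Pmch, peptide genes of the lateral hypothalamus, lay at 43.1 and 16.7 in females and at 37.6 and 22.1 in males. These genes were singled out after the values had been seen. The other 6 lay between 12.9 and 39.8 in females and between 14.6 and 46.1 in males. No detection call was used here, so a low level cannot be told apart from background.

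The receptor signals differed in where they lay beside the genes of other organs, which, as for the peptides, does not rank them by abundance. The highest gene of other organs lay at percentiles 48.6 to 57.2 on female arrays and 44.8 to 52.0 on male arrays, so this reference differed between the array sets. Oxtr had a median percentile of 60.7 (53.3 to 67.7) and exceeded the highest gene of other organs on 23 of 23 arrays. Avpr1a lay at a median of 47.5 (42.9 to 53.9) in females and 58.7 (52.4 to 69.5) in males, and exceeded that gene on 1 of 11 female and 12 of 12 male arrays. Avpr1b had a median of 31.9 (24.1 to 37.5), inside the range of the genes of other organs, and exceeded their highest on 0 of 23 arrays. Its median was above those of 9 of these 14 genes in females and 10 in males.

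**Figure D1:**
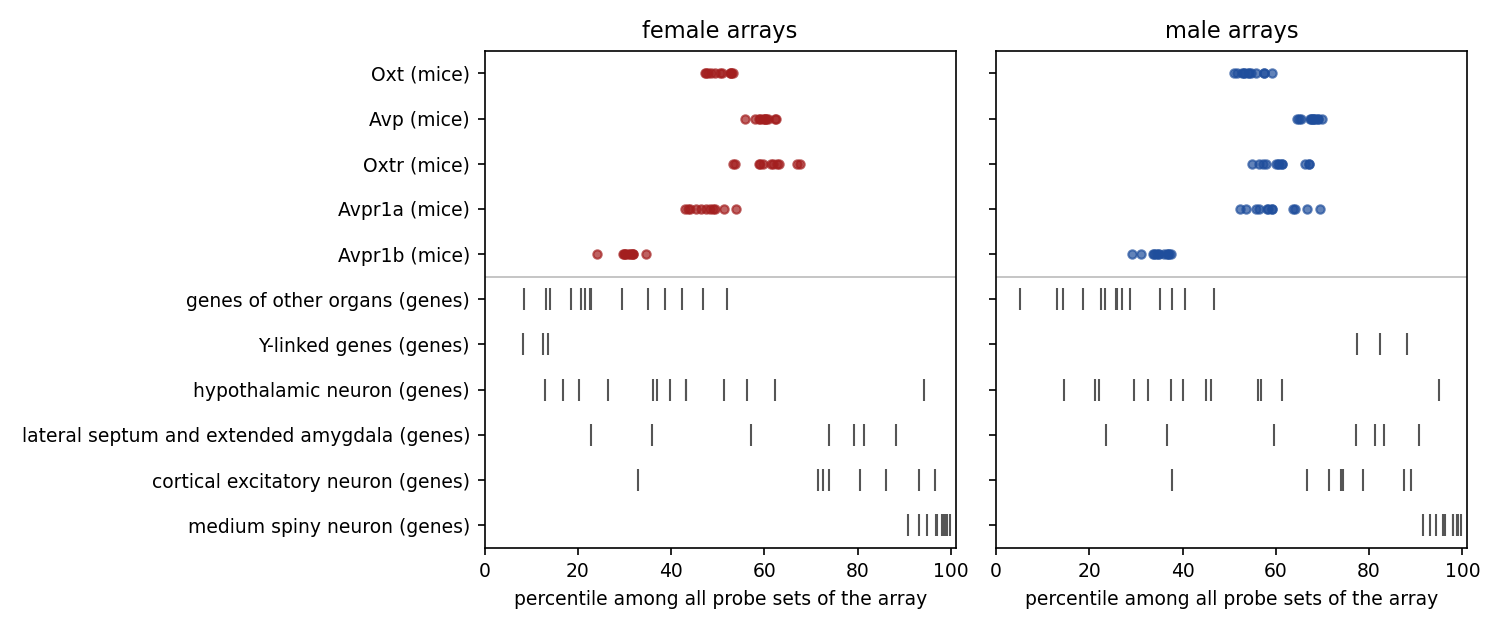
Percentile of each signal among all probe sets of its array (horizontal axis, 0 to 100) in female and male arrays. Points are mice for the 5 members, and ticks are the median percentile of single genes for the reference lists. Avpr1b overlaps the genes of other organs, while medium spiny neuron genes sit at 90.8 or higher.

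Oxt did not differ detectably between the hairpins. In dissected tissue, fewer cells of a type and less RNA per cell cannot be told apart, here and for every level below. In control females its level was 6.00, 6.31, 6.18, 6.27 and 6.28, and in females labelled knockdown the lowest, median and highest were 5.97, 6.10 and 6.33. The knockdown mice thus covered the whole range of the controls. The difference was −0.09 (SE 0.09, 95% interval −0.27 to 0.09) with 5 of 6 mice below the control mean (limma adjusted p = 0.935; exact permutation p = 0.277). In males it ran from 5.91 through 6.11 to 6.42 in controls and from 5.95 through 6.06 to 6.31 in the knockdown group. Those groups overlapped over nearly their full width, with a difference of −0.05 (SE 0.08, interval −0.22 to 0.12; limma adjusted p = 0.996; exact permutation p = 0.61).

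Avp was the steadiest of the 5 members, with an SD within groups of 0.12. Control females read 6.71, 6.68, 6.75, 6.59 and 6.65, and females labelled knockdown read 6.47 at the lowest, 6.77 at the median and 6.91 at the highest. The knockdown females lay on both sides of all 5 controls. Their mean was 0.08 higher (SE 0.07, interval −0.07 to 0.24), with 5 of 6 above the control mean (limma adjusted p = 0.923; exact permutation p = 0.307). Male controls ran from 6.80 through 6.97 to 7.12 and males labelled knockdown from 6.76 through 6.99 to 7.08, so the ranges nearly coincided. The male difference was 0.03 (SE 0.07, interval −0.12 to 0.17; limma adjusted p = 0.996; exact permutation p = 0.742). The Avp percentile was 55.8 to 62.5 on female arrays and 64.5 to 70.0 on male arrays. How many other probe sets part the 23 arrays by sex in this way was not counted. The array set goes with the sex in that contrast, which was not tested.

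Oxtr, the oxytocin receptor, varied from mouse to mouse, with an SD within groups of 0.28, and did not differ detectably between hairpins. Control females read 6.33, 6.67, 6.94, 6.89 and 6.85, and females labelled knockdown ran from 6.37 through 6.78 to 7.23. In each group at least 1 mouse was low, and the groups overlapped throughout. The difference was 0.10 (SE 0.16, interval −0.23 to 0.43; limma adjusted p = 0.963; exact permutation p = 0.584). Male controls ran from 6.24 through 6.49 to 6.93, and males labelled knockdown from 6.16 through 6.56 to 6.91. Again the groups overlapped, with a difference of 0.07 (SE 0.15, interval −0.24 to 0.39; limma adjusted p = 0.996; exact permutation p = 0.634).

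Avpr1a, the V1a vasopressin receptor, was more spread out in males than in females. Control females read 5.95, 5.80, 5.75, 6.06 and 6.19, and females labelled knockdown ran from 5.77 through 6.06 to 6.36. The difference was 0.10 (SE 0.17, interval −0.25 to 0.44; limma adjusted p = 0.963; exact permutation p = 0.45). Male controls spanned 6.00 to 7.12 with a median of 6.57, and males labelled knockdown spanned 6.16 to 6.91 with a median of 6.35. The knockdown males lay inside the range of the controls. Their mean was lower by 0.11 on the log2 scale (difference −0.11, SE 0.16, interval −0.44 to 0.22; limma adjusted p = 0.996; exact permutation p = 0.595).

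Avpr1b, the V1b receptor, stayed close to 5 in most mice. Control females read 5.15, 5.11, 5.05, 5.07 and 5.06, and females labelled knockdown ran from 4.73 through 5.20 to 5.34. Male controls ran from 4.88 through 5.05 to 5.16 and males labelled knockdown from 4.77 through 5.12 to 5.16. The differences were 0.04 (SE 0.09, interval −0.13 to 0.22) in females and 0.02 (SE 0.08, interval −0.15 to 0.18) in males, with limma adjusted p of 0.969 and 0.996. The groups overlapped in both sexes (exact permutation p = 0.714 in females and 0.855 in males).

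**Figure D2:**
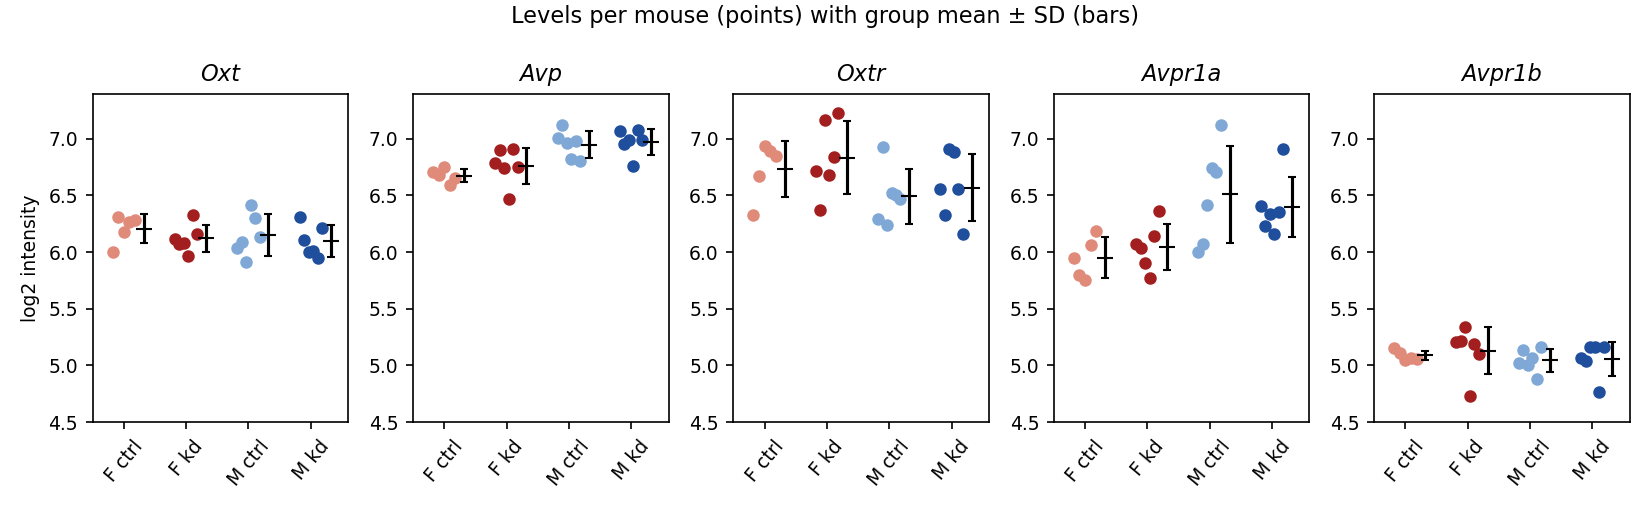
Log2 intensity (vertical axis, same scale in all panels) of the 5 members in each mouse (points), with the group mean and SD as bars. F and M are females and males, ctrl the scrambled hairpin and kd the arrays labelled knockdown, with 5, 6, 6 and 6 mice. Within each sex the groups overlap for every member.

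Across the system, 0 of 5 members passed the adjusted threshold of 0.05 in either sex, against a background of 0.0% of the 41345 probe sets in females and 0.0% in males by limma. At an unadjusted p under 0.05 the members were again 0 of 5 in each sex, beside 5.86% of all probe sets in females and 4.71% in males. The control and knockdown mice of 1 sex did not overlap in 0 of 5 members, a separation seen in 0.588% of probe sets in females and 0.109% in males. The intervals of the differences are given next as percent changes in array signal. They cover the spread between mice of the labelled groups. They do not bound an effect of Nr1d1 loss, since no fall in Nr1d1 was detectable. Nor do they bound a change in RNA, as a low level could not be told apart from background. For Avp they reach from −4.72% to 17.9% in females and from −8.09% to 12.6% in males, and for Oxt from −16.8% to 6.65% and from −14.2% to 8.74%. For Oxtr they are wider, from −14.9% to 34.8% in females and from −15.4% to 31.2% in males. So are those for Avpr1a, from −15.7% to 35.7% and from −26.2% to 16.3%. Those for Avpr1b reach from −8.91% to 16.6% and from −10.2% to 13.7%. Averaged over both sexes, differences lay between −0.07 (SE 0.06) for Oxt and 0.09 (SE 0.11) for Oxtr, with limma adjusted p of 0.98 and 0.981. The male difference minus the female one was largest in size for Avpr1a at −0.21 (SE 0.23, interval −0.68 to 0.27; limma adjusted p = 0.955), so a sex difference in the response was not shown. For that difference and for the average too, 0 of 5 members passed an unadjusted p of 0.05, beside 5.7% and 4.71% of probe sets, and 0.0% passed after adjustment.

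**Figure D3:**
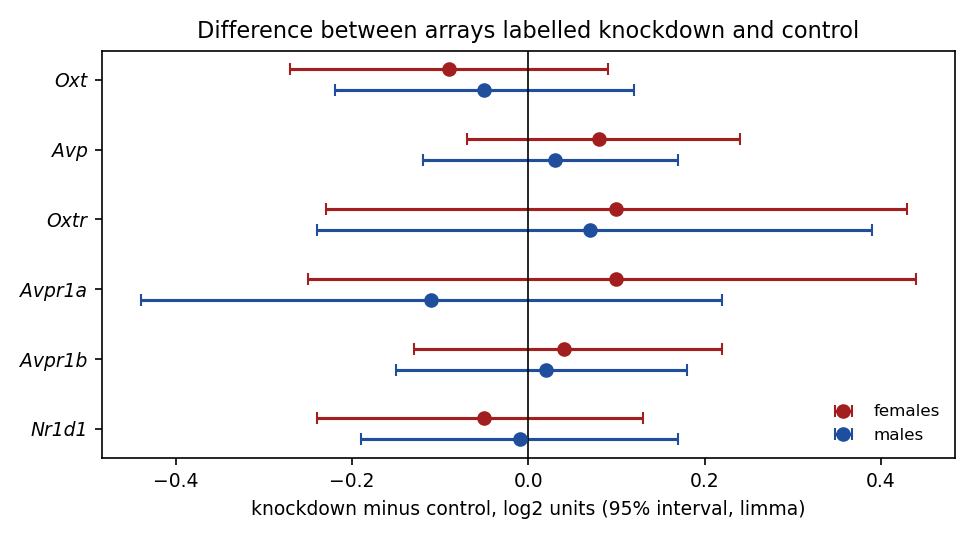
Knockdown minus control on the log2 scale (horizontal axis) for the 5 members and the targeted gene Nr1d1, in females and males, as the limma estimate with its 95% interval. Every interval includes 0.

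The level of 2 receptors varied with the signal of cortical marker genes. The cortical list mean, over 8 measured genes of cortical excitatory neurons, ran from 7.43 to 8.54 in females and from 6.38 to 8.37 in males. A slope on it was fitted for every probe set within groups. It gives the log2 units by which a gene changed for each log2 unit of that mean. This relation was looked for after the values of the members had been seen.

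In females Oxtr rose with cortical signal. The control with the lowest cortical mean, 7.55, had the lowest Oxtr, 6.33, and the control with the highest, 8.47, had the highest, 6.94. In the knockdown group the mouse at 7.43 read 6.37 and those at 8.54 and 8.46 read 7.17 and 7.23. The slope was 0.75 (SE 0.15, interval 0.43 to 1.07; limma adjusted p = 0.0177 over all probe sets), where 0.612% of probe sets rose at this threshold. Over the 11 females, with group means removed, Pearson's r was 0.97 (permutation p = 0.00012, adjusted over 20 relations 0.002) and Spearman's rho 0.97 (permutation p = 0.00015, adjusted 0.003). Without the 2 mice farthest from the median cortical mean r was 0.92. The medium spiny neuron mean ran the other way in females, with r = −0.92 (permutation p = 0.0002, adjusted 0.002) and rho = −0.92 (permutation p = 0.00057, adjusted 0.0057), and r = −0.87 without the 2 farthest mice. Leaving out 1 of 4 females ended the limma call, while the slope stayed at 0.77 without control replicate 1, and at 0.79, 0.75 and 0.71 without knockdown replicates 2, 3 and 6 (adjusted p = 0.109, 0.166, 0.0731 and 0.0698).

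In males the Oxtr slope was 0.20 (SE 0.07, interval 0.05 to 0.35) and did not pass the threshold (limma adjusted p = 0.177). One mouse lay apart from the others. Male control replicate 1 had the highest cortical mean of the males, 8.37, with an Oxtr level of 6.29, whereas control replicate 2 at 8.23 read 6.93. Without replicate 1 the slope was 0.36 (SE 0.06; limma adjusted p = 0.00112). Pearson's r over the 12 males was 0.56 (permutation p = 0.0542, adjusted over 20 relations 0.271) and Spearman's rho 0.54 (permutation p = 0.0911, adjusted 0.279), with r = 0.77 without the 2 farthest mice. With the medium spiny neuron mean r was 0.44 in males (permutation p = 0.159, adjusted 0.455) and rho 0.31 (permutation p = 0.339, adjusted 0.53), opposite in sign to the females and not past the threshold. The male slope minus the female slope was −0.55 (SE 0.17, interval −0.91 to −0.20; limma unadjusted p = 0.00382). That difference did not pass the threshold over all probe sets (limma adjusted p = 0.488).

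Avpr1a fell with cortical signal in males. The males with the lowest cortical means, control replicates 6, 5 and 3 and knockdown replicate 6, at 6.38, 6.39, 6.48 and 6.52, read 7.12, 6.71, 6.42 and 6.91. The males with the highest, control replicates 1 and 2 at 8.37 and 8.23, read 6.00 and 6.07. The slope was −0.40 (SE 0.08, interval −0.56 to −0.23; limma adjusted p = 0.00519), where 1.61% of probe sets fell at this threshold. It passed in all 23 runs that left out 1 array, with slopes from −0.45 to −0.34 and adjusted p up to 0.0415. Pearson's r was −0.85 (permutation p = 0.00365, adjusted over 20 relations 0.0365) and Spearman's rho −0.83 (permutation p = 0.00344, adjusted 0.0688), with r = −0.72 without the 2 mice farthest from the median.

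In males the same receptor was also set against 7 measured genes of the lateral septum and extended amygdala, regions that border the accumbens. Pearson's r with their mean was 0.87 (permutation p = 0.00075, adjusted 0.015) and Spearman's rho 0.72 (permutation p = 0.017, adjusted 0.17), with r = 0.75 without the 2 farthest mice. In females r with this list was 0.14 (permutation p = 0.703, adjusted 0.864) and rho 0.25 (permutation p = 0.479, adjusted 0.599). With the hypothalamic neuron mean r was 0.70 in males (permutation p = 0.0178, adjusted 0.119) and rho 0.59 (permutation p = 0.0514, adjusted 0.216), with r = 0.34 without the 2 farthest mice. Over all 23 mice that r was 0.65 (permutation p = 0.00339, adjusted 0.0339) and rho 0.55 (permutation p = 0.00858, adjusted 0.0858), with r = 0.45 without the 2 farthest. Of the 7 septal and amygdala genes 2 fell with cortical signal in males as well and 0 rose, beside 2.25% of the named genes that fell. The 2 were Crhr2, a receptor for urocortin peptides, and Ecel1, a neuronal endopeptidase (slopes −0.18, SE 0.04, and −0.26, SE 0.04; limma adjusted p = 0.0257 and 0.000933). In females 0 of 7 passed, and these slopes were 0.14 (SE 0.09) and −0.22 (SE 0.09; limma adjusted p = 0.782 and 0.46). In females no relation with cortical signal was detectable for Avpr1a, with a slope of 0.02 (SE 0.17, interval −0.33 to 0.38; limma adjusted p = 0.996). Their cortical means covered a narrower range than those of the males. The male slope minus the female slope was −0.42 (SE 0.19, interval −0.81 to −0.03; limma unadjusted p = 0.0369). After adjustment over all probe sets it did not pass the threshold (limma adjusted p = 0.794), so the sexes were not shown to differ there.

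The other members showed no relation with cortical signal past the threshold. The slopes of Oxt were 0.13 (SE 0.13) in females and −0.07 (SE 0.06) in males, and those of Avp −0.08 (SE 0.11) and 0.05 (SE 0.05). Avpr1b gave −0.02 (SE 0.13) and 0.03 (SE 0.06). None of these 6 passed (limma adjusted p from 0.729 to 0.994). Avpr1b was lower in females with a higher septal and amygdala mean, with r = −0.81 (permutation p = 0.00138, adjusted over 20 relations 0.0092), but rho = −0.76 did not pass (permutation p = 0.0126, adjusted 0.0842), and r was −0.60 without the 2 farthest mice. In males that r was 0.22 (permutation p = 0.47, adjusted 0.591) and rho 0.19 (permutation p = 0.571, adjusted 0.714).

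**Figure D4:**
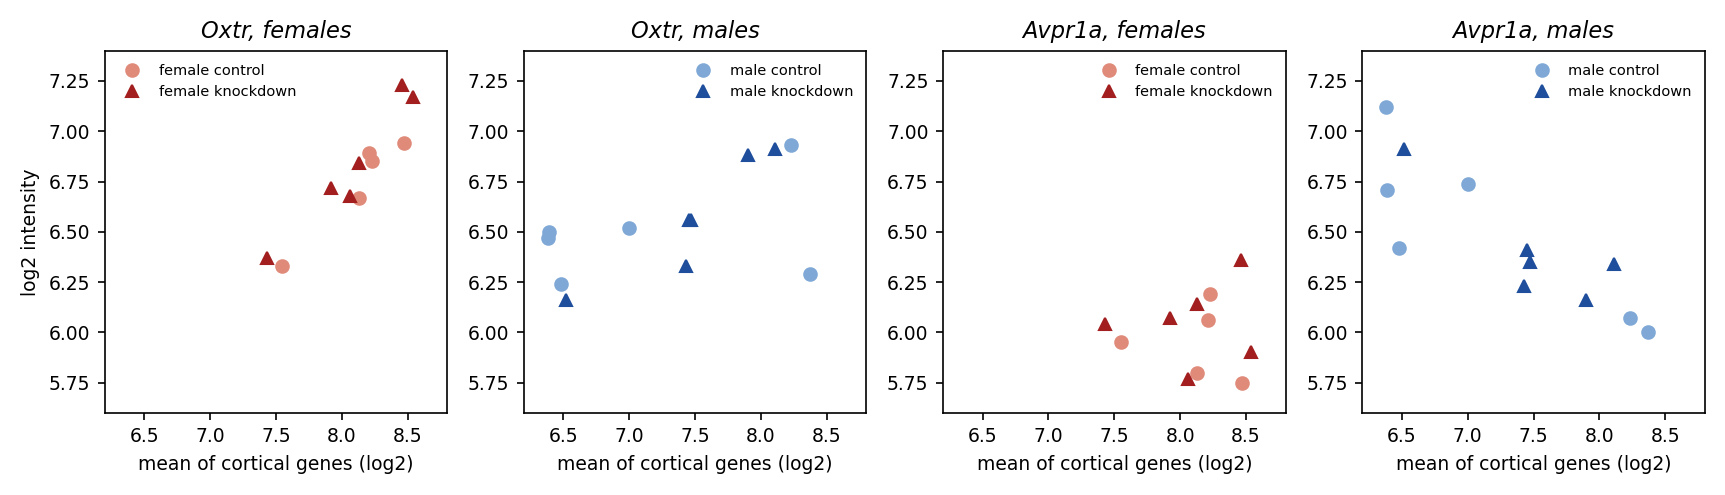
Log2 intensity of Oxtr and Avpr1a (vertical axis) against the mean log2 intensity of 8 cortical excitatory neuron genes (horizontal axis), 1 point per mouse, circles for controls and triangles for arrays labelled knockdown. Oxtr climbs along the axis in females and Avpr1a descends in males, from 7.12 to 6.00.

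**Figure D5:**
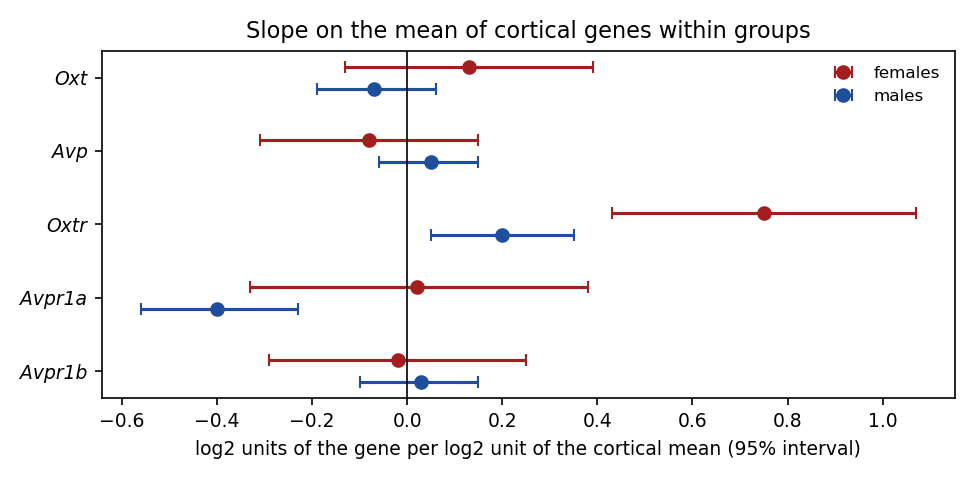
Slope of each member on the cortical list mean within groups (horizontal axis, log2 units per log2 unit, limma estimate with 95% interval) in females and males. The intervals of Oxtr in both sexes and of Avpr1a in males exclude 0 before adjustment.

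Oxtr and Avpr1a spread more between mice of a group than the other members. The SD within groups was 0.28 for Oxtr and 0.29 for Avpr1a, at percentiles 89.0 and 89.9 of all probe sets, whose median SD was 0.14. For Oxt it was 0.15, for Avpr1b 0.14 and for Avp 0.12, the last at percentile 38.9. No pair of members passed the threshold for moving together from mouse to mouse, which with 11 to 23 mice leaves weaker relations undetected. Over the 23 mice with group means removed, the closest of the 10 pairs was Oxt with Avpr1a, with Pearson's r = 0.46 (permutation p = 0.0718, adjusted 0.718) and Spearman's rho = 0.59 (permutation p = 0.0097, adjusted 0.097). It was 0.44 in females and 0.47 in males, and r was 0.46 without the 2 mice farthest from the median. Avp with Avpr1b had r = 0.76 in females (permutation p = 0.0901, adjusted 0.601; rho = 0.40, permutation p = 0.264, adjusted 0.787), which was 0.17 without the 2 farthest mice. The same pair had r = −0.38 in males (permutation p = 0.226, adjusted 0.702) with rho = −0.48 (permutation p = 0.132, adjusted 0.659). Oxt and Avp, neighbours on chromosome 2, had r = 0.09 (permutation p = 0.715, adjusted 0.749) and rho = −0.04 (permutation p = 0.874, adjusted 0.915).

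The genes whose levels ran most like those of each member were found by Pearson's r over the 23 mice with group means removed, as a description. For Oxtr these were the cell adhesion gene Nectin1 (r = 0.93), the kinase gene Cdk18 (0.91) and the matrix protein gene Abi3bp (0.91). For Avpr1a they were Vwc2l (0.93), the potassium channel partner Kcnip4 (0.92) and the metalloreductase Steap2 (0.91). Each of these 6 had an r of at least 0.85 in each sex. The same mice had served to pick the genes, so this adds no separate support. The peptides had looser neighbours, the homeobox gene Hoxd3 at 0.75, Gm7271 at 0.75 and Lhx4 at 0.73 for Oxt, and Lmx1b at 0.84, the vomeronasal receptor gene Vmn1r159 at 0.81 and the photoreceptor calcium sensor Rcvrn at 0.81 for Avp. For Avpr1b they were Siglecg (0.77), Enpp7 (0.76) and B230206H07Rik (0.75). The values of a mouse come from 1 array, and the part of array quality in these correlations was not tested.

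Genes that make, release and transduce the peptides gave no call with the hairpin. Of 11 measured genes of peptide maturation, 3 were higher and 8 lower in females labelled knockdown (median difference −0.023, against 0.0 over all named genes) and 6 higher and 5 lower in males (0.012, against 0.003). Members with the smallest p were Scg5, the chaperone of a precursor convertase, at −0.13 (SE 0.05) and the granule protein gene Chgb at −0.20 (SE 0.10) in females, and Vgf at 0.12 (SE 0.07) and Scg2 at 0.09 (SE 0.06) in males. Of 5 measured genes of release, 2 were higher in each sex, with the vesicle priming factor Cadps at −0.11 (SE 0.09) in females and −0.12 (SE 0.09) in males, Magel2 at −0.10 (SE 0.09) in females and the vesicle protein gene Syt4 at −0.09 (SE 0.07) in males. Of 18 measured genes of receptor signalling, 7 were higher in females (median −0.026, against 0.0) and 16 in males (median 0.031, against 0.003), none past the threshold. These are 38.9% and 88.9% of the list, beside 50.2% and 51.6% of all named genes. The male shift was not particular to this list, as 11 of 11 medium spiny neuron genes were higher in males too (median 0.108). Gnaq, the G protein subunit that couples these receptors to phospholipase C, stood at −0.10 (SE 0.05) and Arrb2, an arrestin of receptor uptake, at −0.10 (SE 0.04) in females. Plcb4, a phospholipase C, stood at −0.23 (SE 0.12) and Rgs2, a brake on such G proteins, at 0.11 (SE 0.06) in males. Of the hypothalamic genes, those with the smallest p were Arnt2 at −0.10 (SE 0.05) and Nhlh2 at 0.14 (SE 0.09) in females, and Kiss1 at 0.15 (SE 0.07) and Pou3f2 at −0.22 (SE 0.11) in males, none past the threshold (limma adjusted p of 0.855, 0.885, 0.996 and 0.996).

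Cortical signal did pass the threshold for some of these genes. Cadps2, a relative of Cadps that serves release from dense core vesicles, rose with it by 1.03 (SE 0.12) per unit in females and 0.49 (SE 0.05) in males (limma adjusted p = 6.2e-05 and 1.38e-05). Pcsk5, a precursor convertase, rose by 0.64 (SE 0.10) and 0.27 (SE 0.05; limma adjusted p = 0.00185 and 0.00147). In males the threshold was also passed by the convertase Pcsk1 at 0.31 (SE 0.07), Chgb at 0.22 (SE 0.04), Rgs4 at 0.18 (SE 0.04) and Unc13a at 0.13 (SE 0.03), while Magel2, a regulator of hypothalamic neurons, fell at −0.19 (SE 0.05). In the 3 lists together 2 of 34 genes rose in females and 6 rose and 1 fell in males, beside 0.612% of probe sets that rose in females, 1.53% that rose in males and 1.61% that fell in males. Among the 22180 named genes, from which the lists come, the shares were 1.01% that rose in females and 2.31% that rose and 2.25% that fell in males.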

How the data were processed

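The deposited table holds log2 intensities for 41345 probe sets on 23 arrays, made by the authors with Transcriptome Analysis Console, per the submitters' processing notes. The version, normalization and build are not given there. Per the labels' protocols, 150 ng of total RNA was labelled per array. Of the probe sets, 23521 had 1 gene symbol in the platform annotation, 1814 several and 16010 none. A gene is read by its single-symbol probe set with the highest mean. Members and gene lists were chosen with earlier results of these data known, and the slopes on cortical signal after the members' values had been seen. Of the 9 lists, genes without a probe set of their own were not analysed here.

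All arrays entered 1 limma 3.58.1 fit in R 4.3.3 with a mean per group (19 residual degrees of freedom, prior 3.24), two-sided, with Benjamini-Hochberg adjustment over all probe sets at 0.05. Exact permutation tests compared single genes within a sex (scipy 1.17.1). Slopes were fitted by limma with group means and 1 slope per sex. Correlations used values with group means removed and 100000 permutations within groups (numpy 2.4.6). p values rest on the spread between mice, and the number of arrays limits precision. The fits were tested on simulated data. By rule, named genes are the members, Nr1d1, per list those past a threshold or the 2 with the smallest p per sex, and the 3 most alike genes per member. For the pathway and hypothalamic lists these are given, and for the other lists not all. Csn2, Tg, Emx1, Sim1, Otp, Hcrt, Pmch and Trh were named after their values were seen. Scaling, fit, filter, block, covariate and leave-one-out alternatives were tried.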

Additional observations from a re-analysis of the deposited data

Results flagged for a closer look

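In 3 of 24 groups of mice, formed by the 5 members and Nr1d1 in the 4 groups, a single mouse lay far from the rest by Dixon's test at 95%, where chance flags about 1 in 20. Avpr1a in male knockdown replicate 6 was the highest at 6.91, a gap of 0.50 in a range of 0.75. The cortical list mean of that mouse was 6.52, the lowest of its group. Avpr1b in male knockdown replicate 5 was the lowest at 4.77, a gap of 0.27 in a range of 0.39. Nr1d1 in female control replicate 4 was the lowest at 9.93, a gap of 0.12 in a range of 0.16.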

How the results depend on the processing

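No knockdown difference of a member passed the threshold in any alternative, with adjusted p of 0.668 or more. The 0.668 belonged to Avp in females without female knockdown replicate 4, where its difference was 0.142 instead of 0.084. That difference passed an unadjusted limma p of 0.05. The female Avpr1b difference in the same run was 0.124 instead of 0.044. The array left out was the lowest of its group for Oxt, Avp, Avpr1a, Avpr1b and Nr1d1 (5.97, 6.47, 5.77, 4.73 and 9.73). It was not the lowest for Oxtr. Of 170 values from alternatives other than leaving out 1 array, 11 changed sign. With the cortical list mean as covariate the male difference was −0.027 for Oxtr and 0.000 for Avpr1a, and that of Avpr1a averaged over both sexes was 0.044. With 1 covariate slope per sex, added after seeing the data, these were 0.026 for Avpr1a in males and 0.062 averaged. The averaged Avpr1a difference was 0.018 with array weights and 0.006 without male control replicates 1 and 6. The male minus female difference of Oxtr was 0.010 after subtracting each array's median and 0.055 with the replicate block, and that of Avpr1b was 0.005 after subtracting the median and 0.014 after quantile normalization. The cause of these sign changes was not tested. Leaving out each of the 23 arrays in turn gave, in females, for Oxt −0.138 to −0.056, Oxtr −0.002 to 0.192, Avp 0.054 to 0.142, Avpr1a 0.034 to 0.157, Avpr1b 0.002 to 0.124. In males these runs gave, for Oxt −0.098 to 0.004, Oxtr 0.006 to 0.163, Avp −0.005 to 0.068, Avpr1a −0.212 to 0.012, Avpr1b −0.018 to 0.073. The average of the sexes ran, for Oxt −0.094 to −0.041, Oxtr 0.036 to 0.133, Avp 0.040 to 0.083, Avpr1a −0.058 to 0.054, Avpr1b 0.009 to 0.070. The male minus female difference ran, for Oxt −0.011 to 0.091, Oxtr −0.117 to 0.077, Avp −0.117 to −0.016, Avpr1a −0.309 to −0.085, Avpr1b −0.109 to 0.029. Of these 460 values 28 changed sign. Slopes on cortical signal ran in females, for Oxt 0.021 to 0.183, Oxtr 0.706 to 0.785, Avp −0.118 to 0.016, Avpr1a −0.102 to 0.104, Avpr1b −0.136 to 0.057. Male slopes ran, for Oxt −0.109 to −0.049, Oxtr 0.133 to 0.363, Avp 0.009 to 0.067, Avpr1a −0.452 to −0.344, Avpr1b 0.000 to 0.056. With Slc17a7 alone in place of the list, the female Avpr1a slope was −0.006, and after quantile normalization the female Avpr1b slope was 0.003. The other 38 of 40 slope values under another measure of cortical signal or another scaling kept their direction and their side of the threshold.

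Over all probe sets the count past the threshold was 0 in each comparison. It was 1 in males and 1 for the difference between the sexes without male control replicates 1 and 6, and 1 for the difference with array weights. Leaving out 1 array gave 0 to 1 in females, in males and for the difference, and 0 throughout for the average. The count of 1 came without female knockdown replicate 1 or male knockdown replicate 4 in females, and without male control replicate 1 or 5 in males and for the difference. The replicate block, with same-numbered mice as pairs, moved the male count at an unadjusted p under 0.05 from 1948 to 1934 and the female one from 2423 to 2697. Over all probe sets, same-numbered mice did not deviate together, with correlations of −0.096 to 0.135, and the numbers are not taken as pairs. Taken over all probe sets at once, these correlations cannot settle pairing for a single member. The blocked differences of Oxtr were 0.020 in females and 0.075 in males. Those of Avpr1a were 0.034 (SE 0.122) in females and −0.110 (SE 0.112) in males. Without the block they were 0.097 (SE 0.166) and −0.110 (SE 0.158). Each member had 1 probe set, so a mean over several could not be formed. Among named genes alone the median percentiles were 44.3 for Oxt, 55.3 for Avp, 51.7 for Oxtr, 45.0 for Avpr1a and 25.2 for Avpr1b. Without a measure of signal over background, absence of expression could not be judged.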
